A study of Rattus norvegicus with 30 samples.

Results

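Described here are 10 genes that mark astrocytes or rise in reactive astrocytes, taken by symbol from a count table of rat dorsal hippocampus. They are Gfap and Vim (reactivity), Slc1a3, Slc1a2 and Glul (glutamate uptake and turnover), and S100b, Aldoc, Gja1, Aqp4 and Aldh1l1 (identity). All 10 of 10 have 1 row each among the 17455 genes of the table, and all 10 passed the filter on low counts that kept 12547 genes. The samples are 30 libraries of polyadenylated RNA in 8 groups. TgF344-AD rats, labelled alzheimer, make up 15 libraries: 3 females on the western diet, 4 females on chow, 4 males on the western diet and 4 males on chow. Wildtype rats make up the other 15, with the same split of 3, 4, 4 and 4. TgF344-AD is a Fischer 344 line that carries human transgenes, known to be driven by a prion promoter, so the transgenes are not limited to one brain cell type. Western diet libraries number 14 and chow libraries 16, female libraries 14 and male libraries 16. Cohort 2 has 16 libraries and cohort 1 has 14, and every group has libraries of both. Cohort 1 supplies just 1 library to either group of females on the western diet. No label gives the rats' age, what the diets contain or what a cohort stands for.

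Astrocytes clear glutamate from synapses, pass metabolites to neurons, buffer potassium and water through their endfeet on vessels, and are joined to each other by gap junctions. Under injury or disease they enlarge and build up intermediate filaments, which are polymers of GFAP and vimentin, and this is the change most often read as reactivity. In the hippocampus of amyloid models reactive astrocytes gather around plaques. Vimentin is not particular to astrocytes: endothelial, ependymal, meningeal and neural stem cells make it too. S100b is also made by cells of the oligodendrocyte lineage.

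In alzheimer libraries 4 of the 10 genes were called, and they did not move together. Gfap was higher, while S100b, Slc1a3 and Aldoc were lower. Vim, the partner of Gfap in the filament, did not pass the test, at −0.03 ± 0.078 on the log2 scale. A gene is called here where its adjusted p was under 0.05. Over all genes tested, 8.03% were called for genotype, 4.14% as higher and 3.89% as lower in alzheimer libraries. Levels below are counts per M (CPM, where M is mega) after scaling by library, and differences are log2 fold changes ± standard error (SE), alzheimer over wildtype, as a mean over both sexes and both diets. Within cohort 2 alone 5 of the 10 were called (Gfap, S100b, Slc1a3, Aldoc and Gja1), and within cohort 1 alone 0 of the 10, with the same sign for the 4. In cohort 1 S100b was at −0.09 ± 0.036 (adjusted p = 0.361), Slc1a3 at −0.07 ± 0.038 (0.5505) and Aldoc at −0.06 ± 0.035 (0.619). The share of all genes called within either cohort alone is not given here or below, so 5 and 0 of the 10 lack that background. How far the 0 in cohort 1 reflects its fewer libraries was not tested. In bulk tissue, fewer astrocytes and less RNA per astrocyte cannot be told apart.

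To show what lies just before the starts of the 4 called genes and of Vim, the 250 bases upstream of each are printed from RefSeq's GRCr8 promoter table. Capitals mark the NFI core motif (TTGGC or its reverse complement GCCAA), the SOX motif (ACAAT or its reverse complement ATTGT) and the TATA box (TATAAA). Gfap lies on chromosome 10 (minus strand), Vim on 17 (plus), S100b on 20 (minus), Slc1a3 on 2 (minus) and Aldoc on 10 (plus).
Gfap: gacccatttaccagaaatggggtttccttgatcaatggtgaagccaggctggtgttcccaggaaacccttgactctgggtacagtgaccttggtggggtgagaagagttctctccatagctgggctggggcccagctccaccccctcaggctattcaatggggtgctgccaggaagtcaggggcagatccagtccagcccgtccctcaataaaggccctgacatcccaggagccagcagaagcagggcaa
Vim: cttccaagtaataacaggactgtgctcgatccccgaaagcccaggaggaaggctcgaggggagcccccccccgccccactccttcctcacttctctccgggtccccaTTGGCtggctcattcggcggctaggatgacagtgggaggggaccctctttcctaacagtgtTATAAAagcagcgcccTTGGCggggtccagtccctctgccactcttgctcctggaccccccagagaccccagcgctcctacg
S100b: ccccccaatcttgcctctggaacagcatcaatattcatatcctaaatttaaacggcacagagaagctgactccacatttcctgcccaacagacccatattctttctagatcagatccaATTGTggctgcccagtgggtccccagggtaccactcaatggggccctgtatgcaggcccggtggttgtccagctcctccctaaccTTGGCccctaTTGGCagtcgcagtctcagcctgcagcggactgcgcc
Slc1a3: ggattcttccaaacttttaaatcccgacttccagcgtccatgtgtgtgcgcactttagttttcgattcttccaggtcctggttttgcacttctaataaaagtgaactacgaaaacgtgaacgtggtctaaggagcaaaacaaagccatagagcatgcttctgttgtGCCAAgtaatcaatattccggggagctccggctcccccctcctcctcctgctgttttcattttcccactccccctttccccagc
Aldoc: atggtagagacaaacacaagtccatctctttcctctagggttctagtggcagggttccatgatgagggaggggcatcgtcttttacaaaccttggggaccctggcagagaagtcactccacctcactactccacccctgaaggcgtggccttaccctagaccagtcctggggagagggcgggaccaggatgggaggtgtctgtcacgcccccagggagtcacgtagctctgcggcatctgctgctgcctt
The motifs below were searched on both strands in all 10 upstream windows. The NFI core motif occurs in the windows of Vim, Slc1a3 and S100b, 3 of 10, against 40.2% of 27457 RefSeq promoters and 44.6% of the 9892 of tested genes, and so in S100b and Slc1a3, which were lower, and not in Aldoc. The SOX motif occurs in S100b alone, against 29.6% of all promoters and 17.9% of those of tested genes. TATAAA occurs in Vim alone, against 13.1% of all promoters and 6.61% of those of tested genes. The AP-1 motif TGANTCA occurs in Gja1 alone, against 6.33% and 4.38%. The STAT motif TTCNNNGAA, the letters bound by the STAT3 factor that is known to drive Gfap in reactive astrocytes, occurs in 0 of the 10 windows, against 7.50% and 5.79%. A match here is a run of letters and does not show binding, and the absence of one says nothing of sites elsewhere.

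The smallest library holds 13.9 M counts, the median one 17.8 M and the largest 31.4 M. The 10 genes were well covered. The lowest count of Vim in any library was 482 and that of Aldh1l1 was 284, and the lowest of each of the other 8 was 3293 or more. Counting error at those lowest counts is 4.55% for Vim, 5.93% for Aldh1l1 and at most 1.74% for the rest. No 2 libraries of one group were alike within sampling noise. No label states that the libraries come from different animals, so p-values measure the spread between libraries.

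Gfap, the main filament protein of astrocytes, was higher in alzheimer libraries, and its mean was higher in each of the 4 combinations of sex and diet. In females on the western diet Gfap was at 1425, 1517 and 1529 CPM in alzheimer libraries, against 1271, 1289 and 1332 CPM in wildtype libraries. In females on chow it was at 1387, 1499.9, 1502 and 1537 CPM in alzheimer libraries, against 1277, 1361, 1377 and 1418 CPM in wildtype libraries. All 3 alzheimer libraries stand above all 3 wildtype libraries in females on the western diet, and the genotypes overlap in the other 3 combinations. In males on the western diet Gfap was at 1332, 1482, 1543 and 1549 CPM in alzheimer libraries, against 1304, 1369.7, 1380.1 and 1509.6 CPM in wildtype libraries. In males on chow it was at 1200.2, 1428, 1478 and 1659 CPM in alzheimer libraries, against 1037, 1136, 1199 and 1362 CPM in wildtype libraries. The mean was 1471 ± 108 CPM over alzheimer libraries, against 1308 ± 117 CPM over wildtype libraries (SD, n = 15 each), a log2 fold change of 0.17 ± 0.032 (adjusted p = 0.000511). In 14 of 15 alzheimer libraries Gfap lay above the mean of the wildtype libraries of the same sex and diet. The difference was 0.17 ± 0.035 in cohort 2 alone (adjusted p = 0.00882) and 0.18 ± 0.047 in cohort 1 alone (adjusted p = 0.121).

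Vim, which encodes vimentin, did not pass the test and showed no steady direction. In females on the western diet it was at 43.9, 49.6 and 68.0 CPM in alzheimer libraries, against 56.6, 61.1 and 63.5 CPM in wildtype libraries. In females on chow it was at 61.0, 64.2, 68.5 and 70.9 CPM in alzheimer libraries, against 59.1, 62.4, 63.4 and 65.1 CPM in wildtype libraries. The genotypes overlap in each of the 4 combinations. In males on the western diet Vim was at 41.7, 47.1, 50.4 and 67.9 CPM in alzheimer libraries, against 44.1, 51.5, 54.1 and 78.1 CPM in wildtype libraries. In males on chow it was at 44.8, 48.7, 50.1 and 58.7 CPM in alzheimer libraries, against 34.7, 36.9, 53.6 and 61.4 CPM in wildtype libraries. The log2 fold change was −0.03 ± 0.078 (adjusted p = 0.868). Vim had the widest spread of the 10 genes. Its residual SD after removing group and cohort was 0.256 on the log2 scale, larger than that of 99.6% of the 2096 genes within 0.5 of its mean log2 CPM, and that of Gfap was 0.0995.

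**Figure D1:**
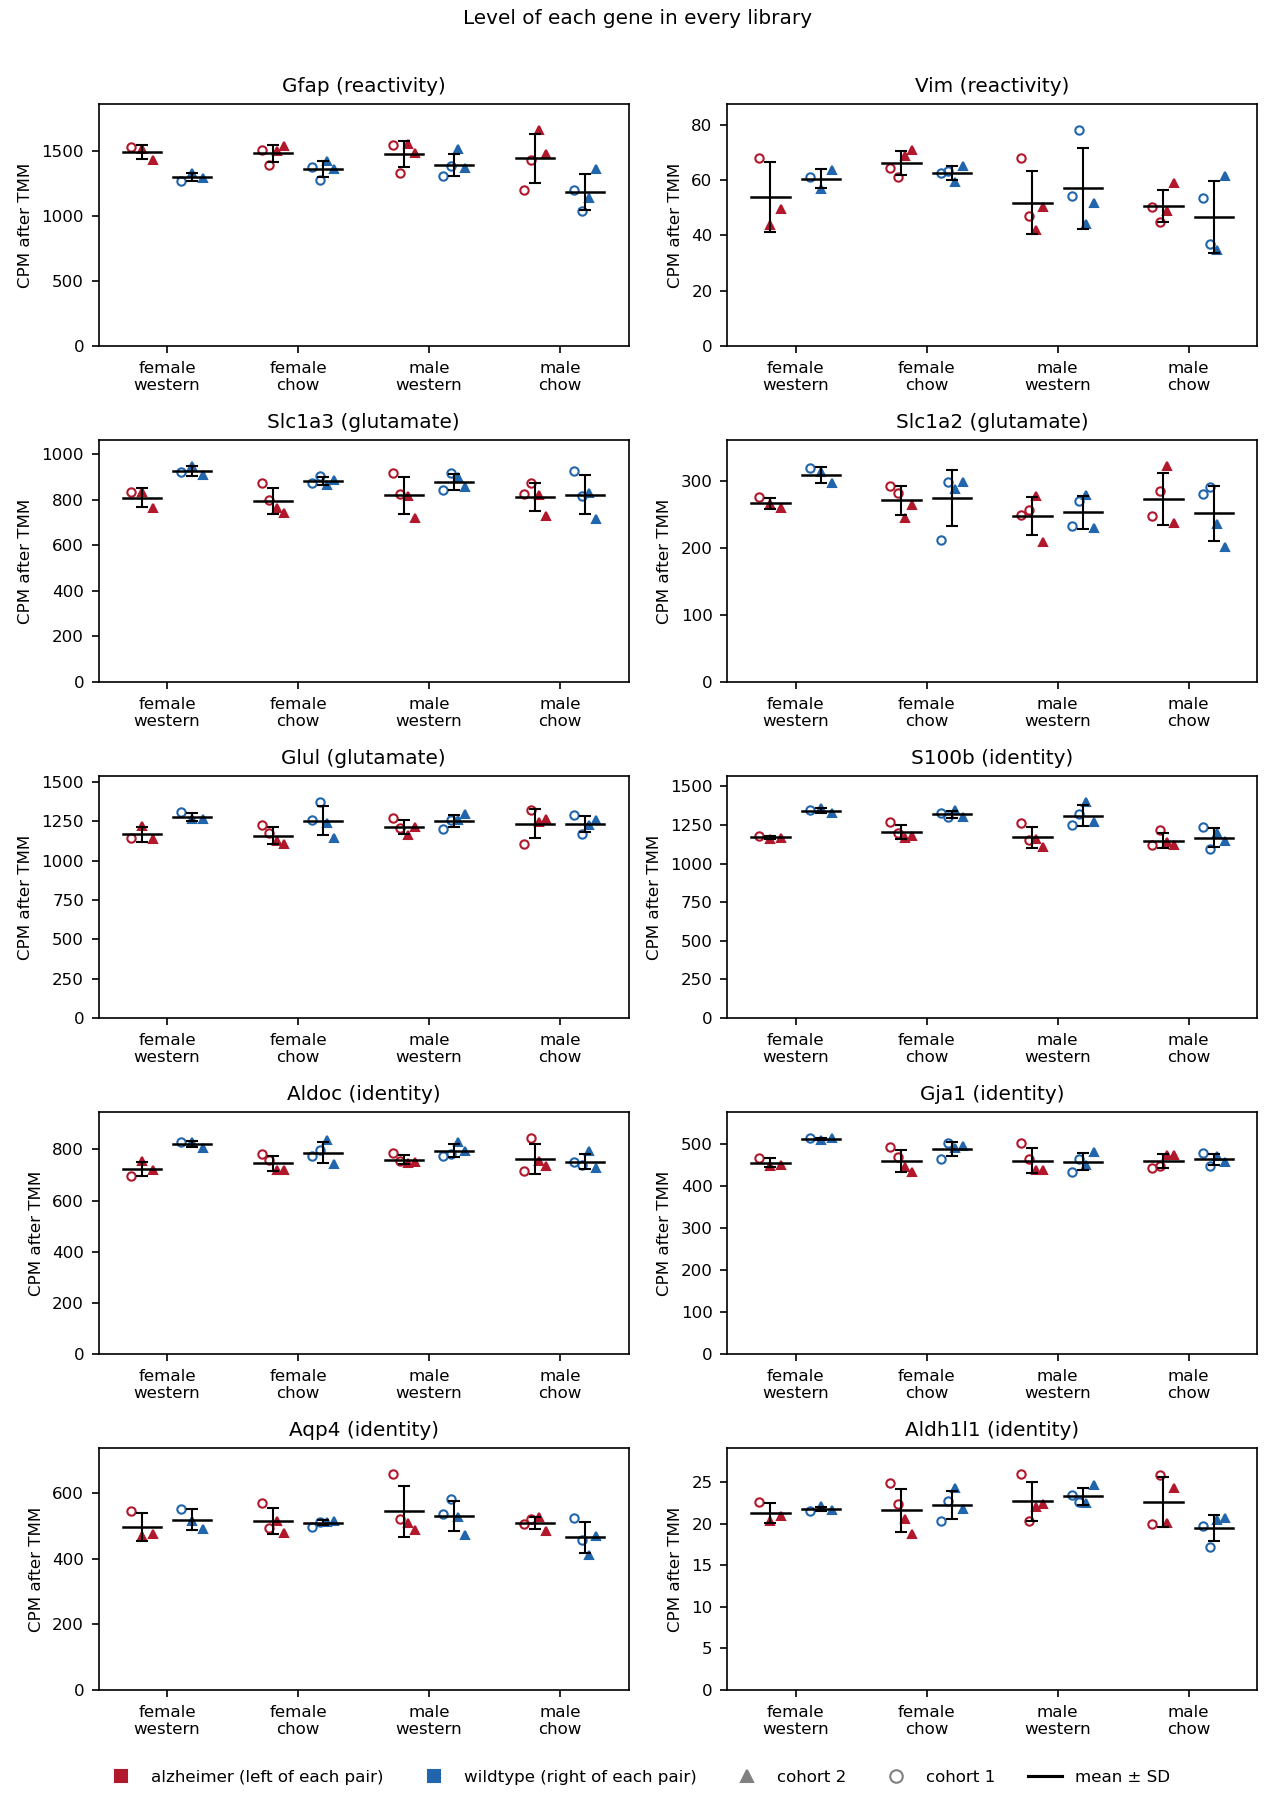
CPM after TMM scaling (vertical axis, from 0) of the 10 genes in every library, by sex and diet, with alzheimer libraries left of wildtype libraries. Triangles are cohort 2, circles are cohort 1, and bars are the mean ± SD of 3 or 4 libraries. Gfap sits higher and S100b lower in alzheimer than in wildtype libraries, and Vim overlaps in all 4 combinations.

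Among the glutamate genes Slc1a3 was lower in alzheimer libraries, and Slc1a2 and Glul did not pass the test. Slc1a3 encodes GLAST, an astrocyte transporter that takes up synaptic glutamate. In females on the western diet it was at 762, 832 and 834 CPM in alzheimer libraries, against 908, 920.2 and 948 CPM in wildtype libraries. In females on chow it was at 740.4, 762, 799 and 872 CPM in alzheimer libraries, against 866, 873, 885 and 904 CPM in wildtype libraries. The female genotypes do not overlap on the western diet, and overlap by 1 alzheimer library on chow. In males on the western diet Slc1a3 was at 718, 816, 827 and 918 CPM in alzheimer libraries, against 844, 855, 899 and 918 CPM in wildtype libraries. In males on chow it was at 727, 821, 826 and 873 CPM in alzheimer libraries, against 717, 815, 831 and 924 CPM in wildtype libraries. The male groups overlap on both diets. The log2 fold change over all libraries was −0.12 ± 0.028 (adjusted p = 0.0076), with 12 of 15 alzheimer libraries below the wildtype mean of their own sex and diet. Slc1a2, which encodes GLT-1, the transporter that carries most glutamate uptake in the forebrain, averaged 265 ± 26.8 CPM over alzheimer libraries and 270.5 ± 37.5 CPM over wildtype libraries (SD, n = 15 each), a log2 fold change of −0.04 ± 0.053 (adjusted p = 0.762). Glul, the glutamine synthetase that turns glutamate and ammonia into glutamine, ranged from 1106 over a median of 1209 to 1324 CPM in alzheimer libraries, against 1145, 1256 and 1373 CPM in wildtype libraries. Its log2 fold change was −0.07 ± 0.025 (adjusted p = 0.0635), on the other side of the threshold in DESeq2 (adjusted p = 0.0490) and in limma voom (0.03996).

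Of the 5 identity genes, S100b and Aldoc were lower in alzheimer libraries and Gja1, Aqp4 and Aldh1l1 did not pass the test. S100b, a calcium-binding protein that astrocytes also secrete, had the smallest adjusted p of the 10 genes. In females on the western diet it was at 1162, 1165 and 1180.1 CPM in alzheimer libraries, against 1324, 1347 and 1357 CPM in wildtype libraries. In females on chow it was at 1165, 1178, 1196 and 1266 CPM in alzheimer libraries, against 1300.1, 1301, 1328 and 1346 CPM in wildtype libraries. The female genotypes do not overlap on either diet. In males on the western diet S100b was at 1106, 1155, 1156 and 1263 CPM in alzheimer libraries, against 1247, 1269.6, 1322 and 1399 CPM in wildtype libraries. In males on chow it was at 1119, 1121, 1138 and 1216 CPM in alzheimer libraries, against 1092, 1146, 1197 and 1234 CPM in wildtype libraries. The male genotypes overlap on both diets, on the western diet by 1 alzheimer library. The log2 fold change of S100b was −0.13 ± 0.021 (adjusted p = 9.49e-05). In 14 of 15 alzheimer libraries it lay below the wildtype mean of the same sex and diet, and 10 of 15 wildtype libraries lay above the highest alzheimer library.

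Aldoc, the brain form of the glycolytic enzyme aldolase, ranged from 698 over a median of 749 to 845 CPM in alzheimer libraries, against 726, 794 and 839 CPM in wildtype libraries. The ranges overlap, and 13 of 15 alzheimer libraries lay below the wildtype mean of their own sex and diet. Its log2 fold change was −0.08 ± 0.023 (adjusted p = 0.0285). This call lies near the threshold and was kept in 26 of the 30 fits that each left out 1 library. Without replicate 3, 11, 15 or 19 the adjusted p was 0.05004, 0.0620, 0.0558 and 0.050002 in that order, each just above the threshold. Gja1, the gap junction protein connexin 43, ranged from 435 over 452 to 502 CPM in alzheimer libraries, against 434, 478 and 515 CPM in wildtype libraries. Its log2 fold change was −0.07 ± 0.022 (adjusted p = 0.0640), and it was called by DESeq2 (adjusted p = 0.0440) and by limma voom (0.0413). Aqp4, the water channel of endfeet, averaged 518 ± 47.9 CPM over alzheimer libraries and 506 ± 41.9 CPM over wildtype libraries (SD, n = 15 each), with a log2 fold change of 0.03 ± 0.032 (adjusted p = 0.670). Aldh1l1, a folate enzyme used as a general astrocyte marker, averaged 22.1 ± 2.27 CPM over alzheimer libraries and 21.7 ± 1.88 CPM over wildtype libraries, with a log2 fold change of 0.03 ± 0.046 (adjusted p = 0.815).

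**Figure D2:**
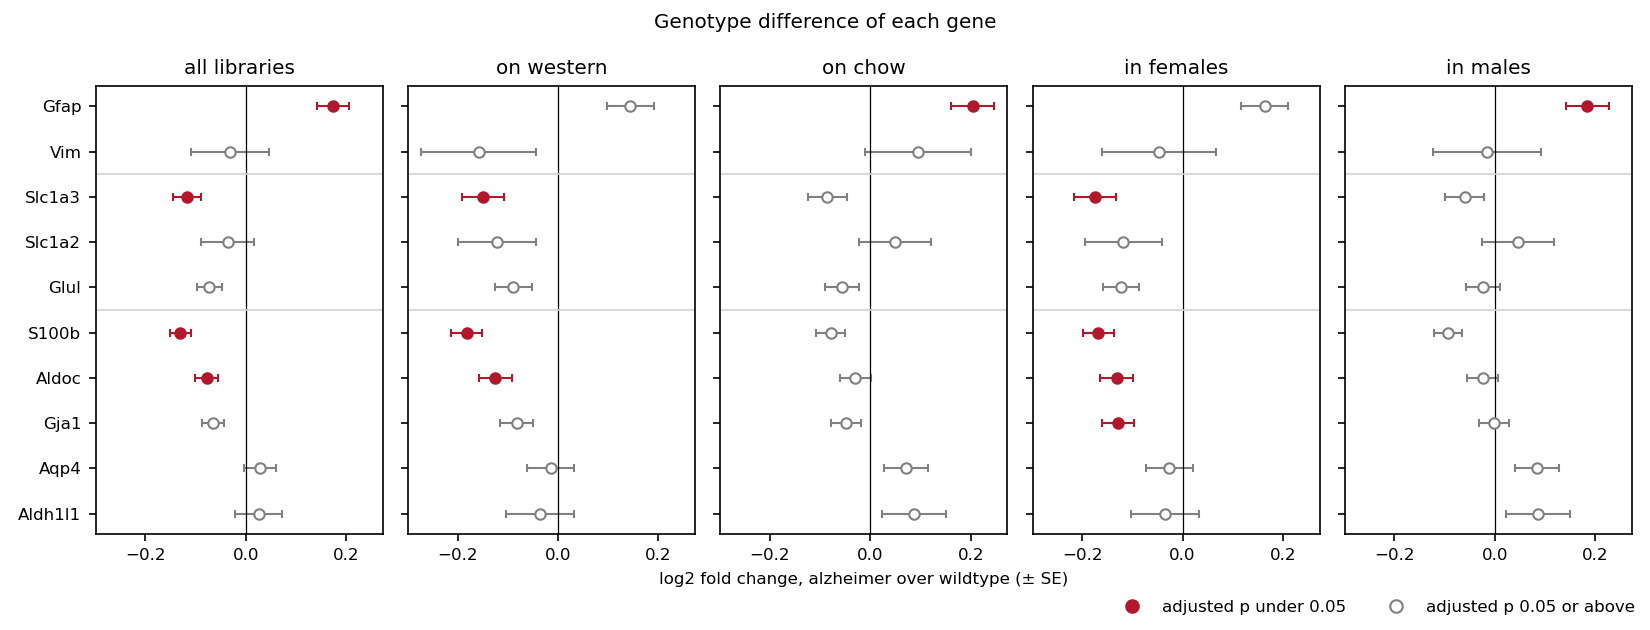
Log2 fold change ± SE (horizontal axis, alzheimer over wildtype) of the 10 genes over all libraries, on the western diet, on chow, in females and in males. Filled points had an adjusted p under 0.05: over all libraries Gfap lies right of 0, and Slc1a3, S100b and Aldoc lie left of it.

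The opposite differences of Gfap and of S100b, Slc1a3 and Aldoc can also be read in the ratio of 2 genes' counts within a library, a measure that does not depend on how libraries were scaled. These ratios are built from genes whose differences are given above, so they carry no test. The log2 ratio of Gfap to S100b ran from 0.10 over a median of 0.36 to 0.54 in alzheimer libraries, against −0.08, 0.05 and 0.25 in wildtype libraries. All 15 of 15 alzheimer libraries lay above the wildtype mean of their own sex and diet, and the genotypes did not overlap in 3 of the 4 combinations, males on chow being the exception. The difference between the genotype means was 0.30 on the log2 scale, a ratio 1.23 times as high in alzheimer libraries, and it was 0.34 in cohort 2 and 0.24 in cohort 1. For Gfap over Slc1a3 the difference was 0.28, and for Gfap over Aldoc it was 0.24, each with 15 of 15 alzheimer libraries above their own wildtype mean. For Gfap over Glul and over Gja1 it was 0.24 and 0.23, with 14 of 15 libraries each, and over Slc1a2 it was 0.19, with 13 of 15. The ratios to Aqp4 and Aldh1l1 differed least, by 0.14 and 0.15 with 11 of 15 libraries each, and the one to Aldh1l1 by 0.25 in cohort 2 and 0.03 in cohort 1. Against Vim the same ratio of Gfap differed by 0.18, with 11 of 15 libraries above. The ratio of Vim to S100b differed by 0.11 between genotypes, with SDs of 0.25 in alzheimer and 0.28 in wildtype libraries, and 10 of 15 alzheimer libraries above.

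**Figure D3:**
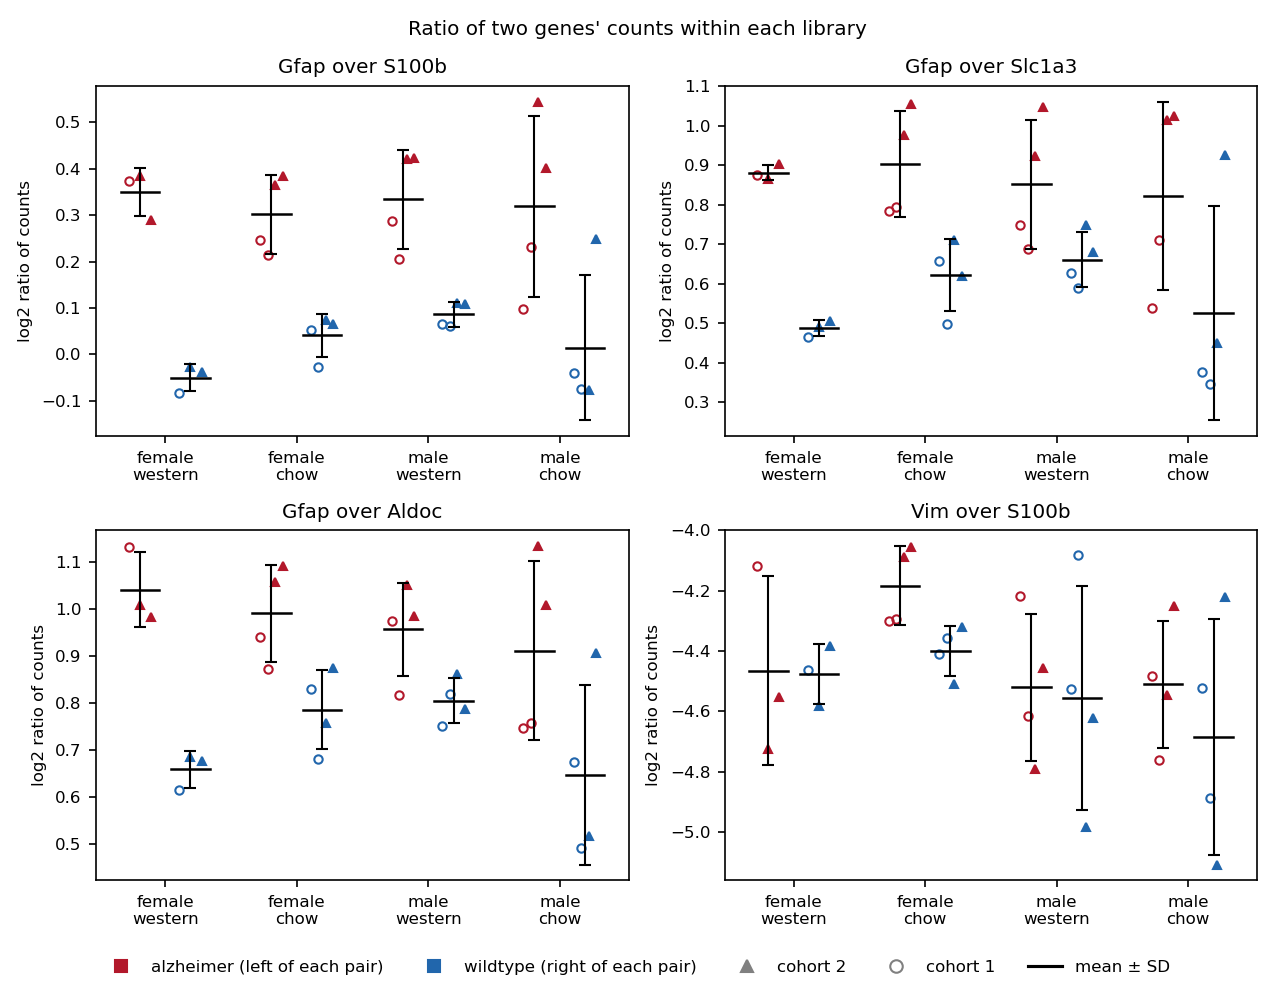
Log2 ratio of 2 genes' counts within each library (vertical axis), by sex and diet, with alzheimer libraries left of wildtype libraries and the mean ± SD in black. Gfap over S100b separates the genotypes in 3 of 4 combinations, while Vim over S100b overlaps in 3 of 4.

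Within one diet or one sex the called genes differed, without a tested difference between the strata. On the western diet S100b (−0.18 ± 0.031, adjusted p = 0.000512), Slc1a3 (−0.15 ± 0.042, 0.0395) and Aldoc (−0.12 ± 0.033, 0.0293) were lower, while Gfap was at 0.14 ± 0.047 (0.0794). On chow Gfap alone was called, at 0.20 ± 0.043 (adjusted p = 0.00893), with S100b at −0.08 ± 0.029 (0.241), and in neither cohort alone was any of the 10 called on chow. Over all genes tested, 3.17% were called on the western diet and 0.901% on chow. In females S100b (−0.17 ± 0.031, adjusted p = 0.00148), Slc1a3 (−0.17 ± 0.042, 0.0162), Aldoc (−0.13 ± 0.033, 0.0251) and Gja1 (−0.13 ± 0.033, 0.0249) were lower, and Gfap was at 0.16 ± 0.047 (0.0509). DESeq2 and limma voom each called 6 of the 10 in females, Gfap and Glul besides these 4, and DESeq2 called Gfap on the western diet too. The shares over all genes in this paragraph are edgeR's, and those of the other tools are not given here. In males Gfap alone was called, at 0.18 ± 0.043 (adjusted p = 0.0220), against 1.25% of all genes in males and 2.57% in females. These within-stratum counts rest on few libraries: leaving out 1 library gave 1 to 6 called genes in females, 0 to 2 in males and 1 to 4 on the western diet, and 1 on chow in each of the 30 fits. In males the call of Gfap was lost without replicate 1, 2, 25, 26 or 27 (adjusted p from 0.0541 to 0.0794). The western count fell to 1 without replicate 11, 17, 21, 22, 24 or 28, and the female count to 1 without replicate 17 and to 2 without 15, 19 or 21.

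The tests of those differences called none of the 10 genes. The genotype-by-diet test in edgeR called 0% of all genes, with 2 of the 10, S100b and Aldoc, at an unadjusted p under 0.05, against 3.55% of all genes. S100b had an interaction of −0.10 ± 0.042 (unadjusted p = 0.0209, adjusted p = 0.9999) and Aldoc one of −0.09 ± 0.045 (unadjusted p = 0.0442). The genotype-by-sex test also called 0%, with Gja1 at −0.13 ± 0.044 (unadjusted p = 0.00742, adjusted p = 0.999) and Aldoc at −0.11 ± 0.045 (unadjusted p = 0.0239), where 4.21% of all genes had an unadjusted p under 0.05. The test of all 3 factors called 0%, with Gfap at 0.27 ± 0.127 (unadjusted p = 0.0399), where 4.97% of all genes had an unadjusted p under 0.05. DESeq2 and limma voom likewise called none of the 10 in these 3 tests. In females on the western diet the genotypes did not overlap for 7 of the 10 genes, Gfap above and Slc1a3, Slc1a2, Glul, S100b, Aldoc and Gja1 below, where 16.8% of all genes did not overlap with 3 libraries a group. In females on chow 1 of the 10, S100b, did not overlap (6.12% of all genes). In males 0 of the 10 were free of overlap, against 7.6% of all genes on the western diet and 3.17% on chow.

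Diet and sex moved none of the 10 genes past the threshold. For western over chow the adjusted p ranged from 0.848 to 0.998, with 3 of the 10 (Aqp4, S100b and Slc1a3) at an unadjusted p under 0.05, against 5.55% of all genes. Over all genes 0.00797% were called, a single gene, and DESeq2 and limma voom called none of the 10. Gfap was at 0.05 ± 0.032, Vim at −0.01 ± 0.078 and Aqp4 at 0.07 ± 0.032 for diet. In females the western diet went with values of −0.04 ± 0.047 for Gfap and 0.01 ± 0.047 for Aqp4, where 0.183% of all genes were called. In males the values were 0.14 ± 0.043 for Gfap (adjusted p = 0.198), 0.14 ± 0.044 for Aqp4 (0.193) and 0.10 ± 0.029 for S100b (0.175), where 0.128% were called. The diet-by-sex test called 1.23% of all genes and none of the 10. Gfap was nearest in it, at −0.18 ± 0.064 (unadjusted p = 0.00803, adjusted p = 0.165). Within alzheimer rats diet called 0% of all genes, and within wildtype rats 0%. In alzheimer rats 0 of the 10 had an unadjusted p under 0.05 for diet (3.89% of all genes). In wildtype rats 4 of the 10 did (5.2% of all genes), among them S100b at 0.10 ± 0.030 (unadjusted p = 0.00246, adjusted p = 0.935). The genotype-by-diet test given above, which is the test of that difference, called none of the 10.

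For female over male the nearest genes were S100b at 0.07 ± 0.021 (adjusted p = 0.0924) and Vim at 0.24 ± 0.078 (adjusted p = 0.128), where 0.837% of all genes were called. Vim averaged 61.2 ± 7.28 CPM in 14 female libraries and 51.5 ± 11.1 CPM in 16 male libraries, and the ranges overlap, 43.9 to 70.9 in females against 34.7 to 78.1 CPM in males. limma voom called Vim and DESeq2 called none of the 10. Of the 10 genes 4 had an unadjusted p under 0.05 for sex, Gja1 and Slc1a2 being the other two, against 14.8% of all genes. For cohort 2 over cohort 1, 0 of the 10 were called by edgeR and limma voom, against 0.0877% of all genes, with Aqp4 nearest at −0.12 ± 0.032 (adjusted p = 0.0932) and 3 of the 10 at an unadjusted p under 0.05 (12.6% of all genes). DESeq2 called Aqp4 and Slc1a3 for cohort. All shares over all genes in this paragraph are edgeR's, and those of DESeq2 and limma voom are not given here.

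By group mean, the 4 alzheimer groups took the top 4 places for Gfap and all 4 wildtype groups the rest. The order was 1490 ± 56.9 CPM in alzheimer females on the western diet, 1481 ± 65.2 in alzheimer females on chow, 1476 ± 101 in alzheimer males on the western diet, 1441 ± 189 in alzheimer males on chow, 1391 ± 86.0 in wildtype males on the western diet, 1358 ± 59.3 in wildtype females on chow, 1297 ± 31.3 in wildtype females on the western diet and 1184 ± 136 in wildtype males on chow. Neighbours differed by less than the larger of their 2 SDs in 6 of 7 steps. The exception was the step between the wildtype females. For S100b the top 3 groups were wildtype, at 1343 ± 16.8, 1319 ± 22.4 and 1309 ± 67.4 CPM, and wildtype males on chow stood low at 1167 ± 61.7 CPM, among the alzheimer groups at 1148 to 1201 CPM. Over the 8 groups, the highest mean was 1.42 times the lowest for Vim, the widest of the 10, 1.26 times for Gfap and 1.10 times for Glul, the narrowest. All 7 neighbouring steps lay within the larger SD for Vim, Slc1a2, Glul and Aqp4.

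Other astrocyte genes were counted from lists, which were drawn up with earlier results of these data known and so carry no test of their own. Of 45 further identity genes, 42 were tested, and 11 were called lower and 0 higher in alzheimer libraries. Over all genes tested 3.89% were called lower and 4.14% higher. Their median log2 fold change was −0.07, against 0.00 for all genes tested, and 35 of 42 were below 0. Mfge8, a bridging protein for phagocytosis, was at −0.16 ± 0.024 (adjusted p = 3.65e-05), and Aldh1a1, a retinaldehyde dehydrogenase, was at −0.21 ± 0.034 (8.09e-05). Mt3, a brain metallothionein, was at −0.11 ± 0.023 (0.00275) and Ttyh1, a membrane protein of glia, was at −0.11 ± 0.027 (0.00571). In cohort 2 alone 12 of the 42 were called lower with a median of −0.12, against a median of −0.02 in cohort 1 alone. The share of all genes called within a cohort is not given beside that count.

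Of 40 other reactivity genes 36 were tested, and 1 was called higher and 3 lower, with a median of −0.03, 17 above 0 and 19 below. These 4 of 36 lie near the 8.03% called over all genes. Ptgs2, the inducible cyclooxygenase, was higher at 0.24 ± 0.047 (adjusted p = 0.00126). C3, a complement component that reactive astrocytes and microglia make, was lower at −0.29 ± 0.049 (0.000209), as were the cytokine gene Clcf1 (−0.44 ± 0.135, 0.0382) and Srgn, a proteoglycan of blood-derived and microglial cells (−0.19 ± 0.061, 0.0491). Lcn2 and Serpina3n, widely used reactivity markers, were too low to test, with at most 11 and 4 counts in any library. Which annotation lies behind the counts is unknown here, and how far these low counts reflect the RNA was not tested. Leaving out 1 library gave 1 to 4 lower calls in this list.

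The remaining lists of related genes held about as many calls as the 8.03% over all genes. Of 14 filament partners 1 was called, the neurofilament gene Nefh (−0.10 ± 0.025, adjusted p = 0.0116), and of 12 genes of the STAT3 pathway 1, the phosphatase gene Ptpn11 (−0.11 ± 0.028, 0.0107). Of 16 tested genes of glutamate handling, Slc1a1, a mainly neuronal glutamate transporter, was higher (0.07 ± 0.021, 0.0436). Of 20 glycolysis and lactate genes, Ldhb (−0.07 ± 0.016, 0.00221) and the lactate exporter gene Slc16a3 (−0.47 ± 0.142, 0.0344) were lower. Of 13 endfoot partners edgeR called 0, with 1 at an unadjusted p under 0.05, where 22.3% of all genes had one.

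Among markers of other cell types, microglial ones were called most often, next to 8.03% over all genes and 3.89% called lower. Of 11 microglial markers 5 were called lower and 0 higher, with 3 lower in cohort 2 alone and 1 in cohort 1 alone. Itgam was at −0.40 ± 0.049 (adjusted p = 7.43e-07), C1qa at −0.17 ± 0.034 (0.00126) and Aif1 at −0.19 ± 0.043 (0.00454). The summed level of these markers ran from 426 over a median of 492.7 to 521 CPM in alzheimer libraries, against 453, 519 and 574 CPM in wildtype libraries. In the other lists the counts were 0 to 2 in either direction. Called lower were 1 of 12 oligodendrocyte markers (Mbp), 2 of 11 endothelial markers (Cldn5 and Flt1), 2 of 12 mural and meningeal markers (Abcc9 and Rgs5) and 1 of 10 inhibitory neuron markers (Pvalb). Of 10 neural stem markers Dcx was higher, and of 11 excitatory neuron markers 2 were higher and 2 lower. For OPC (oligodendrocyte precursor), ependymal and choroid plexus markers edgeR called 0 of 7, 0 of 7 and 0 of 8, each with 1 at an unadjusted p under 0.05. Col1a2 and Rsph4a are listed at 0 in every library, with the same limit from the unknown annotation. The part of these cell types in the differences of the 10 genes was not tested. A fit with the oligodendrocyte marker level as a covariate is described below.

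Within groups most pairs of the 10 genes had a positive correlation, though not in each cohort. After removing group and cohort from log2 CPM, 41 of the 45 pairs had a positive Pearson r over 30 libraries, with a median of 0.34. Of the 45 pairs 9 passed a two-sided permutation test with 100000 resamples and Benjamini-Hochberg adjustment over the 45, and all 9 were positive. In cohort 2 alone 25 pairs were positive and 20 negative, with a median r of 0.05 and 0 of 45 passing. In cohort 1 alone all 45 were positive, with a median of 0.72 and 3 passing. With groups removed these cohorts leave 8 and 6 residual degrees of freedom, so a value of r within a cohort is loose. By Spearman rho 14 pairs passed, 13 positive and 1 negative, and 11, all positive, where permuted values were fitted again for group and cohort as they were for Pearson r. Slc1a3 with S100b had r = 0.73 (p = 1e-04, adjusted p = 0.00450, Spearman rho = 0.70), with r = 0.59 in cohort 2 and 0.94 in cohort 1, and r = 0.75 without the 2 libraries farthest from the median of Slc1a3. Gfap with Aqp4 had r = 0.69 (adjusted p = 0.00855, rho = 0.71), with 0.82 in cohort 2, 0.77 in cohort 1 and 0.68 without 2 libraries. S100b with Aldoc had r = 0.65 and Glul with Aldoc r = 0.64 (adjusted p = 0.0154 for both, rho = 0.59 and 0.64), with 0.64 and 0.44 in cohort 2, 0.62 and 0.90 in cohort 1, and 0.63 and 0.62 without 2 libraries. The other 5 pairs were Slc1a3 with Slc1a2, Vim with Aqp4, Gja1 with Aldh1l1, S100b with Aqp4 and Glul with Aldh1l1, at r from 0.56 to 0.62, with 0.19 to 0.86 in cohort 2 and 0.33 to 0.87 in cohort 1. Gfap and S100b, opposite in their genotype differences, had r = 0.52 within groups (adjusted p = 0.0513), against −0.02 when groups were left in. The rho of this pair was 0.58 and passed (adjusted p = 0.0066, and 0.0292 with refitting). Its r was 0.25 in cohort 2 and 0.96 in cohort 1. Vim with Aldoc was the most negative pair, at r = −0.45 (adjusted p = 0.0769). Its rho of −0.47 is the negative one that passed (adjusted p = 0.0314), and did not with refitting (0.0793).

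Vim correlated with markers of cells other than astrocytes. Of the 100 relations between the 10 genes and 10 marker lists 6 passed after adjustment over the 100, and 4 of those 6 were of Vim. By Spearman rho 18 passed, 5 of Vim, 4 of Gfap, 3 each of Aqp4 and Aldh1l1 and 1 each of Glul, S100b and Aldoc. Of these 17 were positive and 1 negative, that of Aldoc with choroid plexus markers (rho = −0.56, adjusted p = 0.0174). With permuted values fitted again 6 passed by rho, 4 of Vim and 2 of Aqp4, which were with oligodendrocyte and OPC markers. That the relations are particular to Vim was not tested. Vim had r = 0.81 with the mean of 12 oligodendrocyte markers and r = 0.82 with that of 7 ependymal markers (each p = 1e-05, the smallest that the resamples can give, adjusted p = 0.000500, rho = 0.77 and 0.76). These were 0.81 and 0.86 in cohort 2, 0.75 and 0.71 in cohort 1, and 0.76 and 0.81 without the 2 libraries farthest from the median. Vim also went with OPC markers at r = 0.66 (adjusted p = 0.0277) and choroid plexus markers at r = 0.64 (0.0326), with 0.57 and 0.59 in cohort 2, 0.50 and 0.53 in cohort 1. Gfap went with microglial markers at r = 0.62 (adjusted p = 0.0340, rho = 0.54), with 0.50 in cohort 2 and 0.78 in cohort 1, and its rho did not pass with refitting (adjusted p = 0.0882). Glul did so at r = 0.63 (adjusted p = 0.0326, rho = 0.50 with adjusted p = 0.0901 after refitting), with 0.19 in cohort 2 and 0.96 in cohort 1. Whether that relation differs between the cohorts was not tested. Gfap with oligodendrocyte markers had r = 0.54 (adjusted p = 0.0812), with 0.17 in cohort 2 and 0.95 in cohort 1.

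The summed oligodendrocyte markers ran from 8353 over a median of 11439 to 13661 CPM in alzheimer libraries, against 8423, 12872 and 15047 CPM in wildtype libraries. With their mean log2 level as a covariate, a fit added after the data had been seen, the SE of Vim fell to 0.049, against 0.078 without it. Vim's log2 fold change in that fit was 0.05 (adjusted p = 0.569), of the other sign than −0.03 without the covariate and still short of the threshold. Gfap was at 0.19 ± 0.027 (adjusted p = 5.84e-06), S100b at −0.13 ± 0.021 (6.95e-05), Slc1a3 at −0.13 ± 0.027 (0.00225) and Aldoc at −0.08 ± 0.022 (0.0160). The 4 calls were as before. The covariate is marker RNA of the same libraries and not a count of cells. What part oligodendrocytes have in these differences was not tested.

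**Figure D4:**
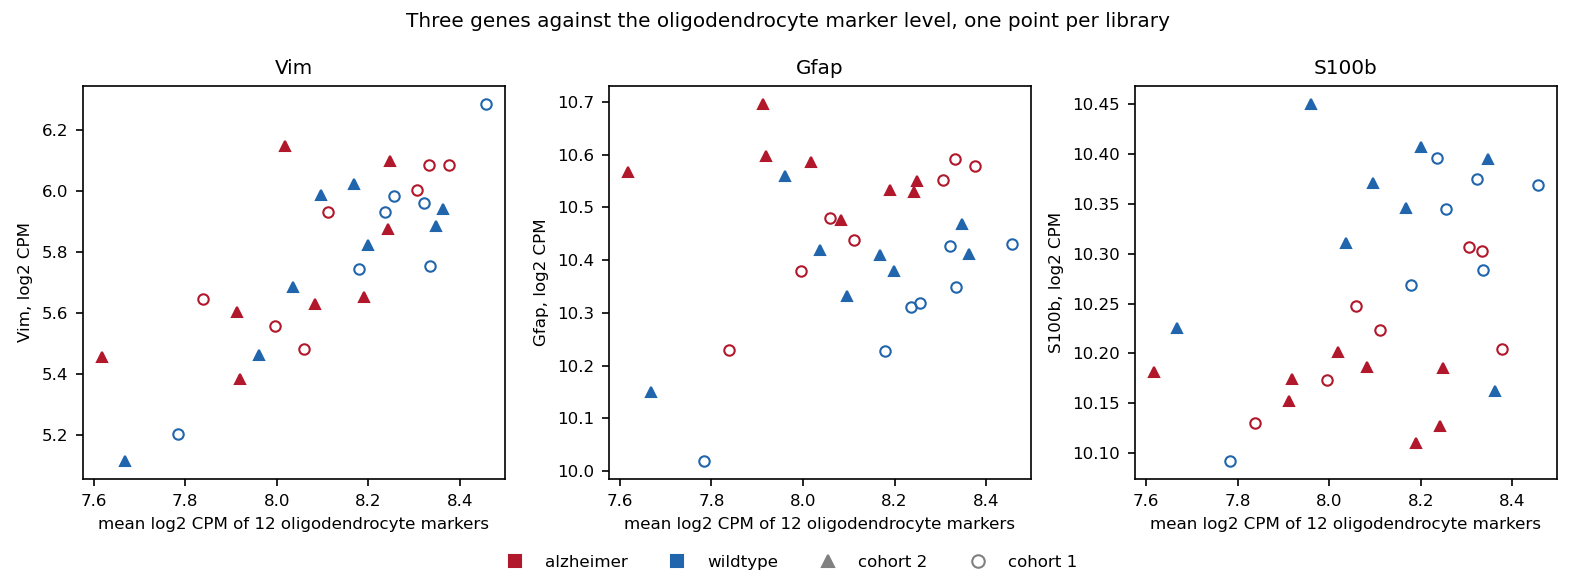
Log2 CPM of Vim, Gfap and S100b (vertical axes) against the mean log2 CPM of 12 oligodendrocyte markers (horizontal axis), 1 point per library with group and cohort left in. Vim climbs with the marker level in both genotypes, and at a like marker level Gfap mostly lies higher and S100b lower in alzheimer than in wildtype libraries.

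The genes whose residual level was most like that of each of the 10 are named here, as descriptions over 30 libraries with no test. Among all other tested genes, Vim was most like Enpp6 (r = 0.92), a marker of newly forming oligodendrocytes, then Krt8 and Anxa1. Gfap was most like Tmem176b (0.81), Cd81 and Lamb2. Slc1a3 was most like Tril (0.89) and S100b was most like Mlc1 (0.88), an astrocyte endfoot membrane protein. Aldoc was most like Ndrg2 (0.89), Htra1 and Acsbg1, and of these Ndrg2 and Htra1 are among the 11 identity genes called lower. Slc1a2 was most like Abat (0.80), a GABA-degrading enzyme, and the microtubule genes Map2 and Map1a. Glul was nearest to Naa80, Mertk and Gjb6, and Gja1 to Gna13, Llgl1 and Acsl6. Aqp4 was nearest to Dennd5a, Srebf1 and Olfml1, and Aldh1l1 to Llgl1, Fam83d and Gdpd5. For Glul, Gja1, Aqp4 and Aldh1l1 these r ran from 0.73 to 0.83. Each gene named here was picked for its high r, so high values follow from the choice. In cohort 2 alone their r ran from 0.25 (Glul with Gjb6) to 0.94 (Vim with Krt8). In cohort 1 alone it ran from 0.75 (Gja1 with Acsl6) to 0.98 (Gfap with Cd81).

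**Figure D5:**
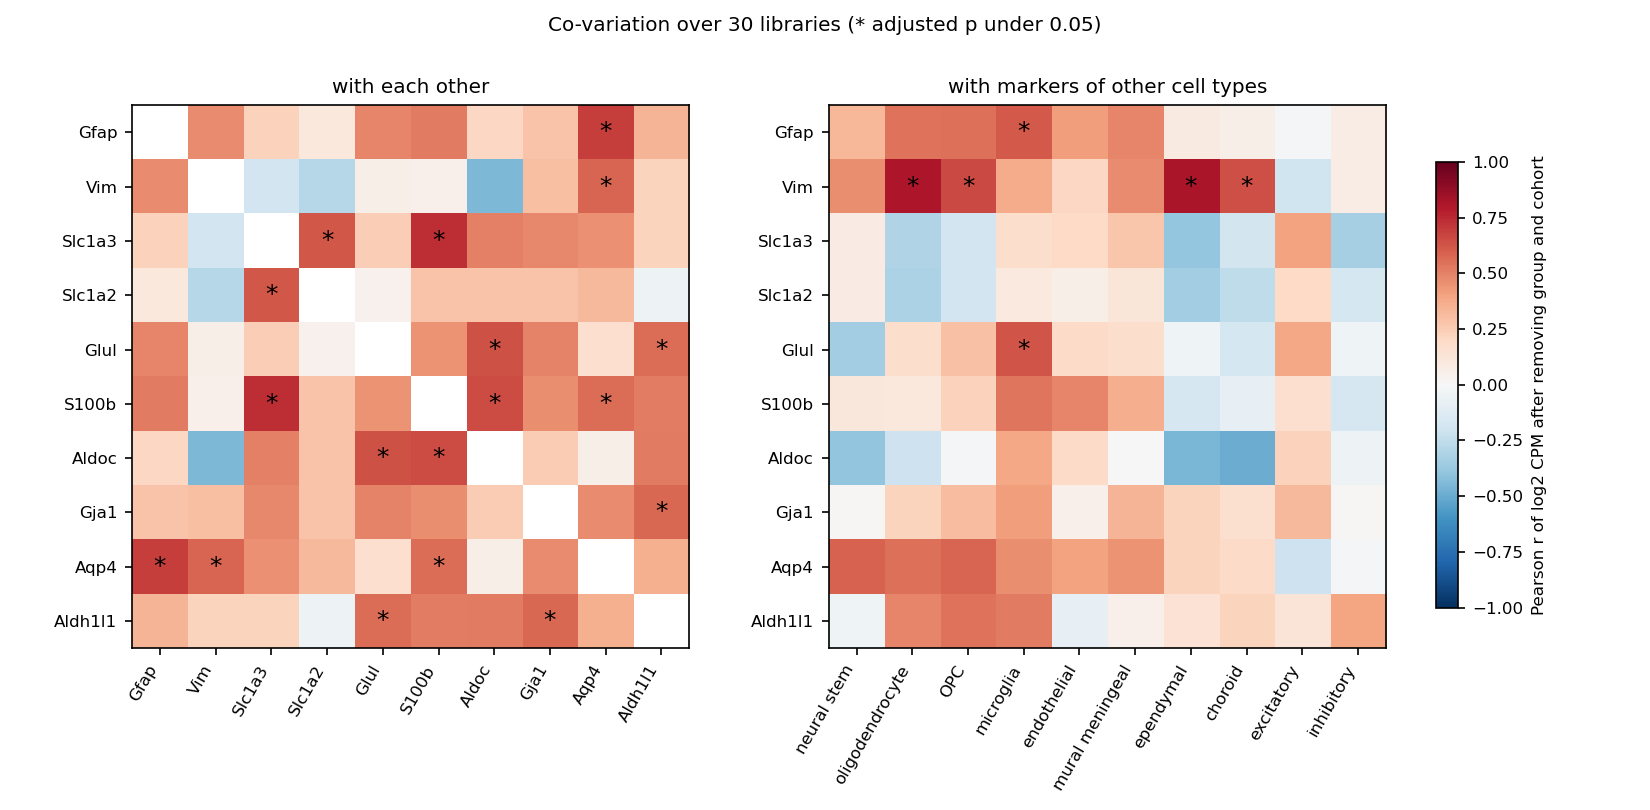
Pearson r over 30 libraries of log2 CPM after removing group and cohort, among the 10 genes (left, diagonal blank) and between each of them and the mean of 10 marker lists of other cell types (right). Asterisks mark an adjusted p under 0.05: 9 of 45 pairs, and 6 of 100 marker relations, of which 4 are in the row of Vim.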

How the data were processed

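Rat dorsal hippocampus gave 30 libraries, from snap-frozen tissue with polyA selection, per the labels' protocols. The values used are the deposited counts, unscaled and whole, with 1 row per gene symbol and 1 column per library. Columns were matched to samples through the sample descriptions, and 0 were left unmatched. Adapters were trimmed with cutadapt and reads aligned with STAR 2.7.0a, per the submitters' processing notes. How reads were counted, with which strand setting, build and annotation, is not given in the sources used here. Coordinates and gene lengths are therefore left out, levels are not compared between genes, and reads of an overlapping antisense gene cannot be told apart.

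The members and the 20 gene lists were chosen with earlier results of these data known. Counts were fitted with edgeR 4.0.16 (R 4.3.3): filterByExpr (minimum count 10, minimum total 15), TMM, 1 coefficient per group plus cohort, the quasi-likelihood F test, two-sided, with Benjamini-Hochberg adjustment over 12547 genes and calls under 0.05, for 16 contrasts. Residual degrees of freedom were 21, and SEs are the change over the root of F. Every adjusted p is edgeR's unless another tool is named. DESeq2 1.42.0, limma 3.58.1 voom with quality weights, other filters and scaling, each cohort alone, each library left out and an oligodendrocyte covariate were alternatives. Ratios used counts plus 0.5. In the permutation test of Pearson r permuted residuals were fitted again for group and cohort; the planned test of Spearman rho permuted the ranks of residuals, and a version with the same refit was added after seeing the data. Named genes were all 10 members, at most the 4 called genes with the smallest p per list and contrast, and per member the 3 most alike; called markers of other cell types, and Lcn2, Serpina3n, Col1a2 and Rsph4a, were named in addition after their values were seen. Listed genes without a row were not used here. Correlations and figures used Python 3.11.15 (numpy 2.4.6, scipy 1.17.1, pandas 2.3.3). The edgeR and correlation steps were tested on simulated data. A few genes that the naming rule picks are not reported here by name.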

Additional observations from a re-analysis of the deposited data

Results flagged for a closer look

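In wildtype females on chow, replicate 9 stood apart from the other 3 libraries for 2 genes. Its Slc1a2 level was 212.9 CPM (212.927 before rounding), against 288.9, 299.3 and 299.4 CPM in the others. Its Aqp4 level was 498.2 CPM (498.236 before rounding), against 513.0, 513.1 and 514.3 CPM in the others, a gap that is wide only against the close agreement of those 3. The 10 genes in the 6 groups of 4 libraries gave 60 such comparisons, and chance flags about 1 in 20 groups. Without replicate 9 neither gene passed the genotype test.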

How the results depend on the processing

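Leaving out 1 library at a time gave 3 to 6 called genes for genotype, against 4 of 10 with all libraries. The log2 fold change ranged from 0.16 to 0.19 for Gfap, −0.14 to −0.12 for S100b, −0.13 to −0.11 for Slc1a3, −0.091 to −0.070 for Aldoc, −0.085 to −0.060 for Glul, −0.076 to −0.058 for Gja1 and −0.076 to 0.019 for Vim. Gfap, S100b and Slc1a3 kept their call and sign in all 30 of these fits. The counts ranged from 0 to 1 for sex, 1 to 4 on the western diet, 0 to 2 in males, 1 to 6 in females, 8 to 14 for the further identity genes called lower, 1 to 4 for the other reactivity genes and 4 to 6 for microglial markers.

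Cohort 1 alone ended the most calls: it called 0 genes for genotype, on either diet and in either sex, and 0 further identity, 0 other reactivity and 1 microglial marker gene lower. Its values were 0.18 for Gfap, −0.094 for S100b, −0.072 for Slc1a3, −0.060 for Aldoc and 0.0035 for Vim (adjusted p = 0.9954). In cohort 2 alone the count on chow was 0 and microglial markers called lower were 3. There Gja1 was called at −0.10 (adjusted p = 0.0137) and Aldh1l1 was at −0.074 (0.499). Calls lost in cohort 2 alone were Gfap in males, at 0.20 (adjusted p = 0.0666), and Aldoc in 2 strata. Aldoc was at −0.14 on the western diet (adjusted p = 0.100) and at −0.14 in females (0.101). Without the cohort term the call of Slc1a3 on the western diet was lost, at −0.15 (adjusted p = 0.0882). Gja1 was called by DESeq2 at −0.066 and by limma voom at −0.067, and Glul by DESeq2 at −0.073, by limma voom at −0.075 and without the filter on low counts at −0.074. Vim reversed to 0.054 with the oligodendrocyte covariate, chosen after seeing the data. In males 0 genes were called without the cohort term and in a fit of male libraries only. For sex 1 gene was called without the filter and 1 by limma voom. For cohort, 2 were called without the filter, 2 by DESeq2 and 1 with the covariate. The shares of all genes called under these settings are not given here. The member pairs that passed numbered 14 by Spearman rho, 11 by rho with permuted values fitted again (added after seeing the data), 17 with groups left in, 3 in cohort 1 and 0 in cohort 2. The cause of these changes was not tested.

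Other reversals were of values short of the threshold. For diet they were, in cohort 1 alone, Vim at 0.22, Slc1a2 at −0.0015, Glul at −0.014 and Aldoc at −0.0055, in cohort 2 alone Gja1 at −0.0032, and by limma voom Slc1a2 at −0.000098. Without 1 library diet values ranged from −0.053 to 0.047 for Vim, −0.016 to 0.039 for Slc1a2, −0.00016 to 0.022 for Glul and −1.5e-05 to 0.020 for Gja1. For sex they were, in cohort 1 alone, Slc1a3 at −0.00020, Glul at 0.010, Aqp4 at −0.010 and Aldh1l1 at 0.034, in cohort 2 alone Gfap at −0.017 and Aldoc at −0.00011, without the cohort term Aqp4 at −0.0047, with the covariate Aqp4 at −0.017, and by limma voom Aldh1l1 at 0.0099. Without 1 library sex values ranged from −0.0046 to 0.016 for Aldoc, −0.0043 to 0.026 for Aqp4 and −0.033 to 0.0055 for Aldh1l1. Of the 10 genes, Vim and Aldh1l1 had the largest counting error, 4.55% and 5.93% at their lowest counts. Both values lie below the residual SD after removing group and cohort, 19.4% for Vim and 9.51% for Aldh1l1. No paired analysis was possible because the replicate numbers run through all libraries and no number occurs in more than one group.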
